A study of Mus musculus with 4 samples.

Results

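Among the peripheral blood mononuclear cells of 4 mice, 73 of 5794 cells carried the label NK cell in the annotation deposited by the authors, and these 73 cells are described here gene by gene. They were chosen by that label alone. The blood came from female wild-type C57BL/6 mice aged 3.2 ± 0.3 months, all anaesthetized, and was drawn 120 min after the treatment or, in controls, 120 min after anaesthesia began, so the treated mice had in addition the treatment itself. The treated mice, Maus3_2 and Maus6, had received non-thermal plasma (NTP), an ionized gas at low temperature, on the ear for 10 min from an argon jet, and the control mice, Maus2_2 and Maus4_2, had received none. Of the annotated NK cells, Maus3_2 gave 22, Maus6 13 and the control mice 19 each. In the authors' clustering, 72 of them lay in cluster 11 and 1 in cluster 7. Cluster 11 also held 5 cells annotated as CD8+ T cells, all from Maus6. Each count is a unique molecular identifier (UMI), which stands for 1 captured RNA molecule.

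Natural killer (NK) cells are lymphocytes that kill without a rearranged antigen receptor and carry activating and inhibitory receptors of the Ncr, Klrb and Klra families. CD8+ T cells build an alpha beta T cell receptor that needs the Cd3 chains and works with the Cd8 coreceptor. Memory CD8+ T cells take up some genes of NK cells, such as Nkg7, Klrd1 and Il2rb, while NKT cells combine an alpha beta receptor with NK receptors and depend on the factor Zbtb16. Gamma delta T cells use other receptor chains, and in blood many of them carry neither Cd4 nor Cd8.

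The cells carried genes of the T cell receptor throughout and genes that define NK cells in part. A UMI of Cd3d, Cd3e or Cd3g was found in 73 of the 73 cells (exact 95% interval 95.1 to 100%), and a UMI of a beta chain, Trbc1 or Trbc2, in 73. Trac, the alpha constant chain, had a UMI in 67 of them (91.8%, interval 83.0 to 96.9%), each together with a beta chain. Cd8a or Cd8b1 was found in 57 cells (78.1%, interval 66.9 to 86.9%), and Cd4 in 1. Ncr1, the activating receptor that marks NK cells, and Klrb1c, the NK1.1 antigen, had a UMI in 1 cell each, while Klra7 and Klre1, lectin-like receptors of NK cells, had a UMI in 17 and 12 cells. The cells are therefore called annotated NK cells here. Genes higher than in CD8+ T cells, among them Ccl5, Ly6c2, Il2rb and, at the 2-fold limit, Nkg7, stand in place of a new name. The intervals cover counting error only.

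Because cell types differ in UMIs per cell, shares of cells were also compared after each cell was thinned to 3000 UMIs, which left 72 annotated NK cells, 583 of 600 CD8+ T cells, 1326 of 1517 CD4+ T cells and 1975 of 3130 B cells. The share in B cells, which should lack T cell genes, shows the level of free RNA. For differences between types, UMIs were summed per mouse and type and scaled to CPM (UMIs per 1000000, with TMM factors between sums). A gene was called higher or lower when its mean log2 difference over the 4 mice reached 1 in size (2-fold) with the same sign in all 4. Genes needed a mean of at least 50 CPM over the types compared. A gene under 50 CPM in 1 type therefore entered only through the other type. The annotation rests on clustering of these same genes, so these differences are a description and carry no test.

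The plots of share and depth show how many such cells each mouse gave and how deep they were. They made up 1.44% of the cells of Maus3_2 (Wilson 95% interval 0.955 to 2.18%), 0.762% in Maus6 (0.446 to 1.30%), 1.91% in Maus2_2 (1.23 to 2.97%) and 1.21% in Maus4_2 (0.775 to 1.88%). The treated and control mice overlapped. The mean difference was -0.458 percentage points (two-sided exact permutation p = 0.667, where 2 against 2 mice cannot go below 0.33). The median UMIs per annotated NK cell were 7314.5, 7114, 8146 and 6016 in Maus3_2, Maus6, Maus2_2 and Maus4_2, against 6564.5, 5534, 6232.5 and 4761 in CD8+ T cells of the same mice. The annotated NK cells were deeper in 4 of 4 mice, by a mean of 1375 UMIs (two-sided exact paired permutation p = 0.12, the smallest that 4 pairs allow). The authors removed cells above 2500 genes, and 8.22% of the annotated NK cells held more than 2400 genes against 3.17% of CD8+ T cells. No annotated NK cell carried 1 of the 4 barcodes that occurred in more than 1 library.

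**Figure D1:**
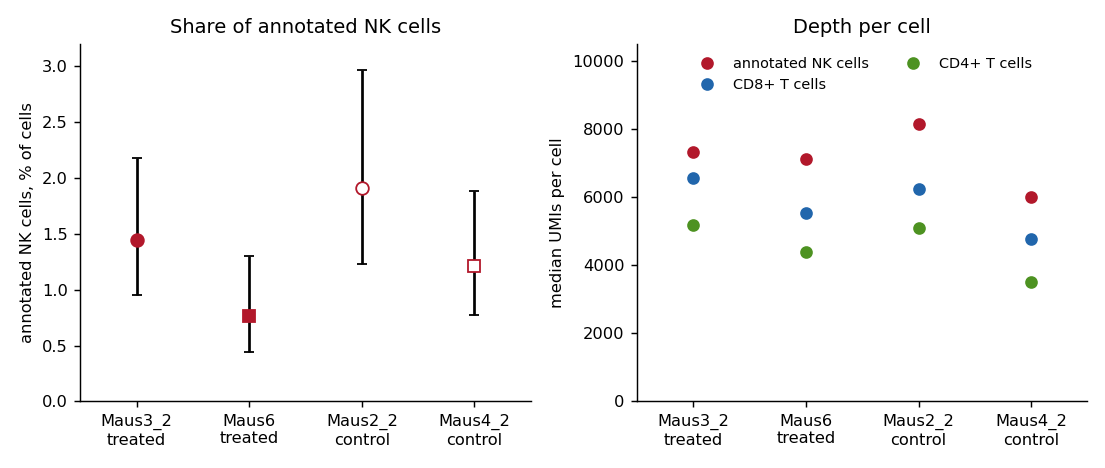
Left, the share of annotated NK cells among all cells of each mouse (points, %) with Wilson 95% intervals (bars), filled symbols for treated and open symbols for control mice. Right, the median UMIs per cell of annotated NK, CD8+ T and CD4+ T cells in each mouse. The shares of 0.762 to 1.91% overlap between groups, and the annotated NK cells are the deepest of the 3 types in each mouse.

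The T cell receptor complex lay close to its level in CD8+ T cells. Cd3d, a signalling chain of the receptor, stood at 716 and 742 CPM in annotated NK cells of the treated mice and at 735 and 774 CPM in those of the controls, against 712, 808, 700 and 698 CPM in CD8+ T cells. The values overlapped, with a log2 difference of 0.03 ± 0.11 (SD over 4 mice). After thinning, 83.3% of annotated NK cells, 84.9% of CD8+ T cells, 83.0% of CD4+ T cells and 0.608% of B cells held a Cd3d UMI. Trac was at 405, 398, 426 and 426 CPM in Maus3_2, Maus6, Maus2_2 and Maus4_2, above 324, 298, 266 and 294 CPM in the CD8+ T cells. The difference of 0.47 ± 0.15 had the same sign in each mouse but stayed under 2-fold. Of the 7 receptor genes compared, 0 were called in either direction, against 0.79% of all 2533 genes called higher than CD8+ T cells and 1.5% called lower (2.29% in either direction). Their median log2 difference was -0.24, beside -0.16 for all genes. The zeta chain Cd247 was the lowest, at -0.62 ± 0.18 (318 ± 37.5 against 495 CPM). Trbc1 and Trbc2 are near-identical, so how reads were split between them is uncertain.

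Genes that carry the signal of the receptor onwards also lay close to CD8+ T cells. Of 12 members compared, 0 were called against CD8+ T cells, with a median of -0.04. Over all genes, 2.29% were called in either direction. Ptpn22, a phosphatase that restrains receptor signalling, reached 346 ± 49.0 CPM against 189 CPM in CD8+ T cells (log2 difference 0.84 ± 0.32). The kinases Lck and Zap70 stood at 236 and 53.5 CPM, against 214 and 52.5 CPM.

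Of the CD8 coreceptor, Cd8a overlapped with CD8+ T cells and Cd8b1 did not. Cd8a stood at 193, 221, 151 and 200 CPM in annotated NK cells of Maus3_2, Maus6, Maus2_2 and Maus4_2, against 187, 198, 166 and 174 CPM (0.06 ± 0.14). Cd8b1, the beta chain, stood at 318, 354, 501 and 521 CPM against 718, 685, 638 and 667 CPM. These ranges did not overlap, the difference of -0.69 ± 0.41 missed 2-fold, and 56.9% of annotated NK cells against 83.0% of CD8+ T cells held a UMI after thinning (0.203% of B cells). Cd4 had 1 UMI in all annotated NK cells. Runx3, the factor that silences Cd4 in the CD8 lineage, was at 75.7 ± 37.0 CPM against 112 CPM (-0.61 ± 0.79), and Zbtb7b, its counterpart in CD4+ T cells, had 3 UMIs. Together 56 cells (76.7%) held a Cd3 chain, Trac, a beta chain and a Cd8 chain at once, against 69.3% of CD8+ T cells, 6.20% of CD4+ T cells and 0 of 3130 B cells (which allows up to 0.0958%). After thinning the order was the other way round, with 44.4% of annotated NK cells and 48.5% of CD8+ T cells, so no order is read from these shares. A Cd8 chain alone was held by 68.1% and 89.0% after thinning.

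**Figure D2:**
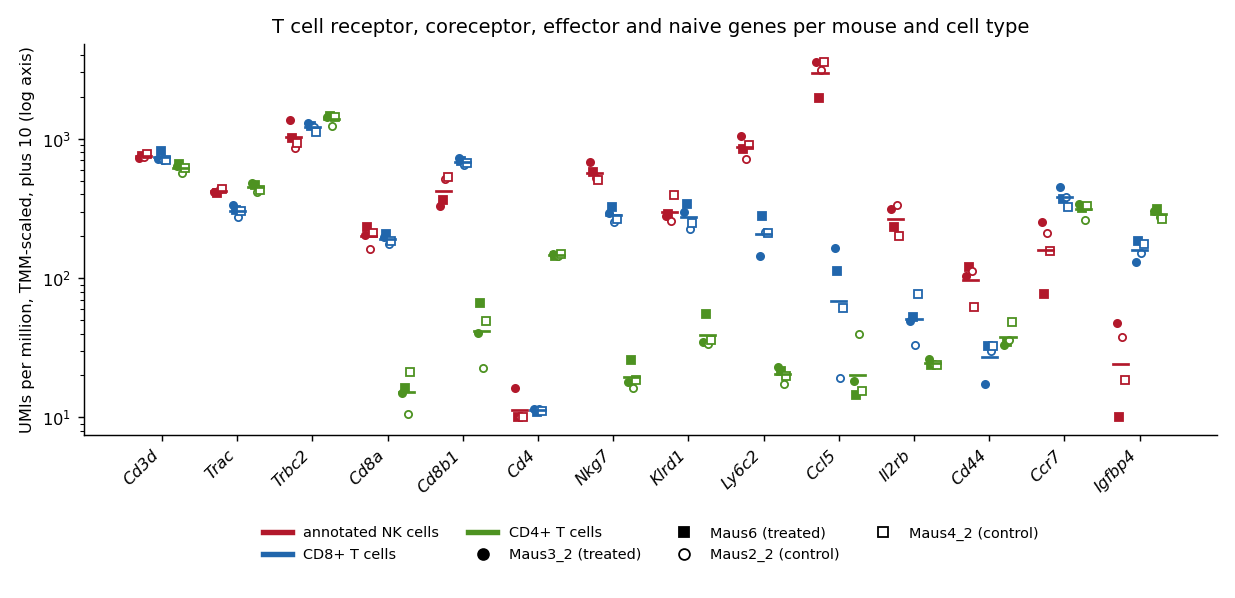
Level of 14 genes as TMM-scaled UMIs per 1000000 plus 10 (log axis) in annotated NK cells, CD8+ T cells and CD4+ T cells. Each symbol is 1 mouse, filled for treated and open for control, and lines are geometric means of the values with 10 added. Receptor genes lie together across the 3 types, Cd4 separates CD4+ T cells, and Ccl5, Ly6c2, Il2rb and Cd44 lie highest in annotated NK cells.

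Variable segments of the receptor, which reads from the 3' end seldom reach, were spread over several. Of 18 Trbv segments in the table, 9 had a UMI, in 14 annotated NK cells (19.2%, against 20.2% of CD8+ T cells), and the most frequent segment was in 3 cells. Of 16 Trav segments, 5 had a UMI, in 8 cells.

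Genes that define NK cells were low in number of UMIs but more frequent than in T cells. At least 1 of them had a UMI in 46.6% of annotated NK cells, 11.7% of CD8+ T cells, 10.0% of CD4+ T cells and 12.2% of B cells, before thinning. The shares in the other types differed by gene. Tyrobp was in 8.12% of B cells, while Ncr1 was in 0.192% and Klra7 and Klre1 in 0.0639% each. Prf1 was in 7.67% of CD8+ T cells and 3.76% of CD4+ T cells. Their summed level was 897, 66.4, 261 and 287 CPM in Maus3_2, Maus6, Maus2_2 and Maus4_2, against 23.2 to 30.8 CPM in CD8+ T cells. Of 22 listed genes, 21 were in the table, 16 had a UMI in an annotated NK cell and 0 reached the mean of 50 CPM over both types that the comparison with CD8+ T cells needed. Gzma, granzyme A, had 55 UMIs, all from 1 cell of Maus3_2, and 0 UMIs in the other 3 mice. Fcer1g and Tyrobp, the adaptor chains of NK receptors, had 30 and 7 UMIs. Itgam, Fcgr3, Cd244a, Klra8 and Klrb1f had 0, where a count of 0 allows up to 4.11% of cells with a UMI or 5.92 CPM. No gene of the list had a UMI in 39 of the 73 cells, and 17 cells had 1 such gene, 10 had 2, 4 had 3 and 3 had 4 or more.

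A single cell of Maus3_2, with 6795 UMIs, stood apart with 11 of these genes, against 4 in the next. It held 55 UMIs of Gzma, 20 of Fcer1g, 5 of Tyrobp, 4 of the pore former Prf1, 1 of Ncr1, 17 of Nkg7 and 42 of Ccl5. It also held 2 UMIs of Cd3d, 2 of Cd3e, 1 of Cd3g, 1 of Trac and 8 of Trbc2, and none of Cd8a, Cd8b1 or Ly6c2. Leaving out this cell, chosen after its values were seen, gave 19 genes called higher and 39 called lower than CD8+ T cells, and Nkg7 was no longer called.

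The Klra receptors, C-type lectins that bind MHC class I and are known as Ly49, were found in 25 of the 34 cells that held any gene of the NK list. These 25 are 34.2% of the annotated NK cells, of which Maus3_2 gave 7, Maus6 3, Maus2_2 6 and Maus4_2 9. A UMI of any of the 6 listed Klra genes was also found in 2 of 600 CD8+ T cells (0.333%), 6 of 1517 CD4+ T cells (0.396%) and 22 of 3130 B cells (0.703%). Klra7 stood at 156, 22.1, 96.2 and 95.6 CPM in Maus3_2, Maus6, Maus2_2 and Maus4_2, with 52 UMIs in all. Klre1, another lectin-like receptor, had 26 UMIs in 12 cells and 0 UMIs in 600 CD8+ T cells (which allows up to 0.500%). After thinning, Klra7 was in 19.4% of annotated NK cells and 0.172% of CD8+ T cells, and Klre1 in 12.5% and 0%. Klra genes are near-identical copies, so the split of reads among them is uncertain while their sum is less so. On GRCm38, Klra7 lies at chr6:130218605-130233322 on the minus strand and Klre1 at chr6:129577905-129585827 on the plus strand.

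NK receptors that memory T cells share gave a mixed picture. Klrd1 (CD94), the partner chain of the Klrc receptors, stood at 268, 277, 247 and 382 CPM in Maus3_2, Maus6, Maus2_2 and Maus4_2, against 287, 329, 217 and 238 CPM in CD8+ T cells. The values overlapped (0.13 ± 0.40), and thinned shares were 54.2% and 51.5%, against 0.405% of B cells. Its partners Klrc1 and Klrc2 had 11 and 12 UMIs, and after thinning were in 8.33% and 5.56% of annotated NK cells against 0.172% and 0% of CD8+ T cells. Klrk1 (NKG2D) had 11 UMIs, in 5.56% against 0.858% after thinning. Klrg1, a receptor of late effector cells, had 0 UMIs. Of 9 listed genes, 3 were compared with CD8+ T cells and 0 called, with a median of -0.14. Over all genes, 2.29% were called in either direction.

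**Figure D3:**
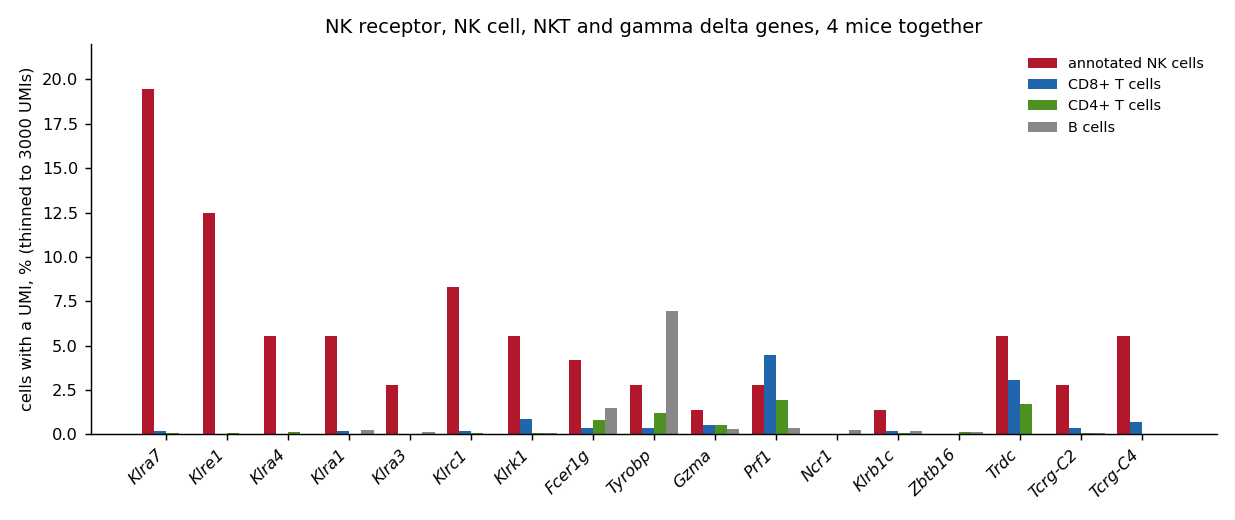
Share of cells (%) with at least 1 UMI after thinning each cell to 3000 UMIs, for 17 genes of NK receptors, NK cells, NKT cells and gamma delta T cells. Bars are annotated NK cells, CD8+ T cells, CD4+ T cells and B cells of the 4 mice together. Klra7 (19.4%) and Klre1 (12.5%) lead in annotated NK cells, while Ncr1 and Zbtb16 are at 0 there.

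The list of NKT and innate-like T cell genes summed to 217 to 410 CPM in annotated NK cells over the 4 mice, against 440 to 525 CPM in CD8+ T cells. Zbtb16 had 0 UMIs in the 73 cells, which allows up to 4.11%, and 0 in CD8+ T cells. Klrb1c had 1 UMI, the homing receptor Cxcr6 had 3 and the cytokine Il4 had 0. Traj18, the joining segment of the invariant NKT receptor, had 11 UMIs in 8 cells, and after thinning was in 1.39% of annotated NK cells, 5.15% of CD8+ T cells and 5.96% of CD4+ T cells. Gata3, a factor of NKT and CD4+ T cells, had 19 UMIs in 14 cells, and was in 6.94%, 5.66% and 12.9% after thinning. Of 18 listed genes 16 were in the table and 12 had a UMI. Of the 3 compared with CD8+ T cells 0 were called, against 2.29% of all genes in either direction. The 3 were Slamf6 (-0.94 ± 0.42), Icos (-0.63 ± 0.81) and Plac8 (-0.19 ± 0.19).

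Constant chains of the gamma delta receptor had a UMI in 13 annotated NK cells (17.8%, exact interval 9.84 to 28.5%), against 4% of CD8+ T cells, 2.18% of CD4+ T cells and 0.288% of B cells. After thinning the shares were 8.33% of annotated NK cells and 3.09% of CD8+ T cells. Of these 13 cells, 8 came from Maus3_2, 3 from Maus4_2 and 1 from each other mouse, and 4 had no Trac UMI. Trdc, the delta constant chain, had 32 UMIs in 5 cells, 22 of them in Maus3_2, 4 in Maus2_2 and 6 in Maus4_2. Tcrg-C2 had 11 UMIs in 7 cells, and Tcrg-C4 8 UMIs in 4.

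Several effector and memory genes were called higher than in CD8+ T cells. Ccl5, a chemokine made by memory CD8+ T cells and NK cells, led with 3568, 1948, 3105 and 3563 CPM in Maus3_2, Maus6, Maus2_2 and Maus4_2, against 153, 103, 9.23 and 51.3 CPM. Every mouse lay far above its own CD8+ T cells, with a log2 difference of 5.44 ± 1.47 and thinned shares of 90.3% and 6.35% (0.962% of B cells). Ly6c2, a surface antigen of memory CD8+ T cells, stood at 1040, 830, 708 and 887 CPM against 133, 270, 205 and 202 CPM (2.07 ± 0.57). Il2rb, the receptor chain through which interleukin 2 and interleukin 15 signal, stood at 305, 221, 323 and 191 CPM against 39.1, 43.0, 23.1 and 67.2 CPM (2.38 ± 0.83). For both genes the ranges of the types did not overlap. Nkg7, a protein of cytotoxic granules, stood at 672, 565, 515 and 495 CPM against 282, 316, 241 and 256 CPM. Its difference of 1.01 ± 0.18 lay at the 2-fold limit and fell under it without Maus3_2, without Maus2_2 and after thinning.

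Of 27 memory T cell genes, 27 had a UMI, 13 were compared, and 6 were called higher and 1 lower. Over all genes 0.79% were called higher and 1.5% lower. The median was 0.93 beside -0.16 for all genes. Members low in CD8+ T cells, such as Cd44 and Il2rb, passed the limit of 50 CPM only through the annotated NK cells. That filter tilts the median and the calls upwards, and the list was chosen with earlier results of these data known. The other genes called higher were Cd44, a hyaluronan receptor raised on antigen-experienced T cells (89.8 ± 26.1 against 18.1 CPM, 1.83 ± 0.68), the interleukin 18 receptor chain Il18r1 (180 ± 57.5 against 71.8 CPM, 1.18 ± 0.24), Ahnak and Ms4a4c. Id2, a factor that effector T cells and NK cells depend on, was the member called lower, at 46.5 ± 8.59 against 115 CPM (-1.14 ± 0.23). Below the 50 CPM limit, Cxcr3, a homing receptor of memory cells, had a UMI in 16.4% of annotated NK cells against 2.67% of CD8+ T cells, Eomes, a factor of memory CD8+ T cells, in 17.8% against 4%, and Tbx21 (T-bet) in 6.85% against 0.833%, all before thinning. After thinning the shares were 5.56% and 0.858% for Cxcr3, 4.17% and 2.06% for Eomes, and 2.78% and 0.172% for Tbx21.

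Of 15 cytotoxic genes, 12 had a UMI, 5 were compared with CD8+ T cells and 2 were called higher (Ccl5 and Nkg7). Over all genes 0.79% were called higher. The median of the 5 was 0.88. Ctsw, a protease of cytotoxic cells, stood at 192 ± 61.3 against 96.3 CPM (0.88 ± 0.57), Ctsd at 125 ± 33.5 against 90.5 CPM (0.40 ± 0.53), and Srgn, the proteoglycan of granules, at 462 ± 76.3 against 590 CPM (-0.36 ± 0.24). Prf1 had 12 UMIs, 4 of them in the 1 cell with Gzma. It was in 2.78% of the cells (2 cells) after thinning against 4.46% of CD8+ T cells. Before thinning the shares were 8.22% and 7.67%, and the levels 21.9 and 14.9 CPM, so no direction is read. Gzmb had 1 UMI, and Gzmk, Ccl3 and Ifng had 0. Gzmm had 12 UMIs in 8 of the 57 cells with a Cd8a or Cd8b1 UMI and 0 in the 16 without. Fasl had 1 UMI in the 57 and 4 in the 16, Xcl1 2 and 2, and Ccl4 1 and 1. Ifngas1, a long noncoding RNA from the neighbourhood of Ifng, was called higher at 121 ± 32.6 against 24.9 CPM (1.89 ± 0.19).

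Across all genes, 20 of 2533 were called higher than in CD8+ T cells (0.79%) and 38 lower (1.5%). With DESeq2 size factors in place of TMM the split was 27 higher and 23 lower, and the median difference of all genes moved from -0.16 to -0.03. The sums of CD8+ T cells were larger than those of the annotated NK cells, at 661598 to 1110933 against 88076 to 159073 UMIs. After the larger sums were drawn down to the smaller, a step added with the data seen, the median was 0.01 and the split 37 higher and 29 lower. Of the 30 named genes called, 26 were still called, and those lost were Ubn1, Slc12a7, Itgb7 and Itga4. Of the named genes called, 0 turned their direction under an alternative.

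Further genes among those called higher were Ctla2a, an inhibitor of cysteine proteases (187 ± 126 against 18.5 CPM, 2.65 ± 1.40), Runx2 (85.1 ± 43.6 against 17.1 CPM, 1.63 ± 1.0) and Hopx, a homeodomain protein of effector and memory T cells (84.8 ± 8.79 against 26.3 CPM, 1.42 ± 0.51). Ctla2a spread widely, with 230, 22.1, 323 and 174 CPM in Maus3_2, Maus6, Maus2_2 and Maus4_2. Ikzf2 (Helios), a factor of regulatory and innate-like T cells, stood at 286, 55.3, 151 and 86.9 CPM against 31.8, 19.6, 33.8 and 86.6 CPM. In Maus4_2 both types were level, and the mean difference of 1.46 ± 1.19 was no longer called without Maus2_2 or with cells of cluster 11 only. Of the 7 genes of the regulatory T cell list, 4 had a UMI in annotated NK cells, and Foxp3, Il2ra and Tnfrsf4 had 0. Only Ikzf2 was compared with CD8+ T cells. Tnfrsf18 had a UMI in 14 of the 57 cells with a Cd8a or Cd8b1 UMI and in 7 of the 16 without. Ctla4 had a UMI in 11 and 1 of these cells, and Capg in 2 and 1.

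**Figure D4:**
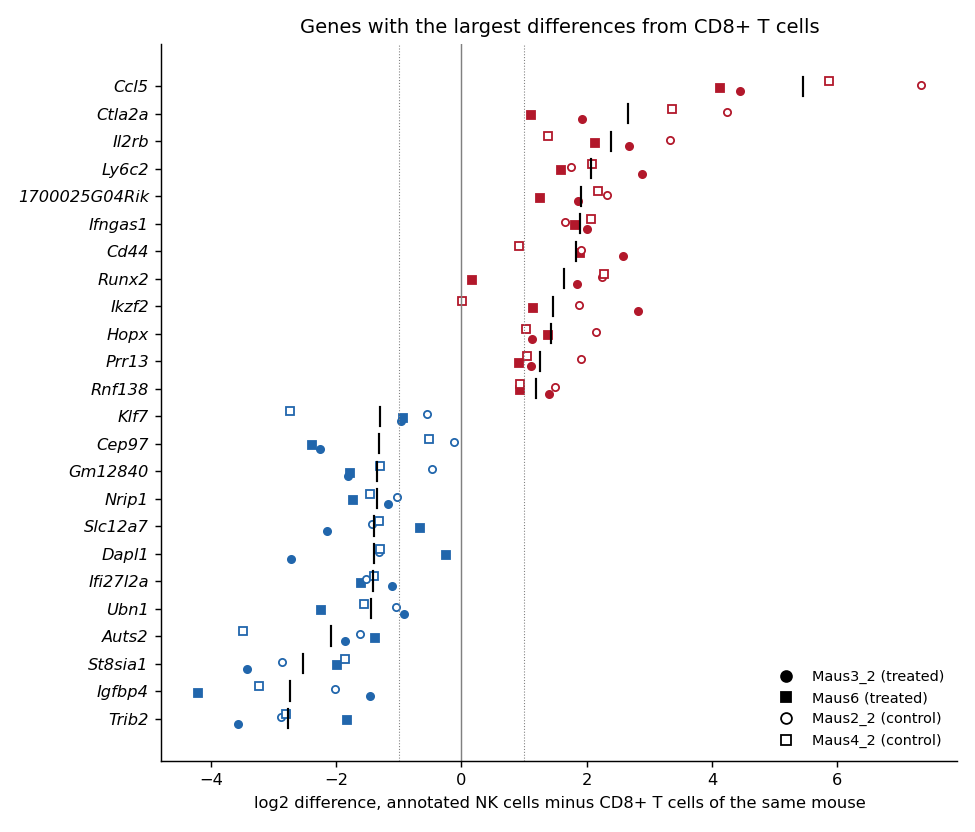
Log2 difference between annotated NK cells and CD8+ T cells of the same mouse for the 12 genes called higher and the 12 called lower with the largest means. Symbols are mice, filled for treated and open for control, black ticks are means, and dotted lines mark 2-fold. Ccl5 has the largest mean, at 5.44, and Trib2 the lowest, at -2.77.

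Naive T cell genes were present at a lower summed level, and 3 of them were called. Their sum was 6040 to 6704 CPM in annotated NK cells over the 4 mice, 9060 to 9291 CPM in CD8+ T cells and 9881 to 10164 CPM in CD4+ T cells. Of 17 listed genes, 16 were compared, and 3 were called lower and 0 higher, where 1.5% of all genes were called lower. The median was -0.47 beside -0.16 for all genes, and 2 of the 16 had a positive difference. Igfbp4, which marks naive T cells, stood at 37.4, 0, 27.5 and 8.69 CPM in Maus3_2, Maus6, Maus2_2 and Maus4_2, against 120, 175, 141 and 165 CPM (-2.73 ± 1.23). Of its 11 UMIs, 5 came from the 1 cell with granzyme A. Ccr7, the lymph node homing receptor, stood at 243, 66.4, 199 and 148 CPM against 441, 362, 372 and 316 CPM (-1.26 ± 0.69). Dapl1 stood at 74.7, 487, 192 and 191 CPM against 546, 577, 495 and 485 CPM (-1.39 ± 1.01), with Maus6 closest to its CD8+ T cells. The call of Ccr7 was lost without Maus6 and that of Dapl1 without Maus3_2. Lef1 and Tcf7, a pair of transcription factors of naive T cells, were not called, at -0.72 ± 0.25 and -0.16 ± 0.23. After thinning, Lef1 was in 77.8% of annotated NK cells and 93.1% of CD8+ T cells.

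The lowest differences of all belonged to Trib2, a pseudokinase, with 4 UMIs in annotated NK cells and 9.42 ± 9.27 against 112 CPM (-2.77 ± 0.72). St8sia1, a sialyltransferase, had 5 UMIs and stood at 11.6 ± 10.0 against 104 CPM (-2.53 ± 0.74). Ifi27l2a, an interferon-stimulated gene, was called lower at 154 ± 66.2 against 411 CPM (-1.41 ± 0.21). Ccr9, the gut homing receptor, had 0 UMIs in annotated NK cells and a UMI in 15.7% of CD8+ T cells. Itga4 and Itgb7, the chains of the gut homing integrin, were called lower at -1.0 ± 0.30 and -1.03 ± 0.45, and both calls were lost with DESeq2 size factors and with total counts only.

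Genes higher in annotated NK cells were also counted per single cell. Of Ccl5, Nkg7, Ly6c2 and Il2rb, 3 or more were found in 75.0% of annotated NK cells, 4.46% of CD8+ T cells and 0.151% of CD4+ T cells after thinning. In CD8+ T cells this came to 26 of 583 cells. All 4 were found in 23 annotated NK cells (31.9%) and in 5 CD8+ T cells (0.858%). Of Nkg7, Klrd1, Ly6c2 and Cd8b1, all 4 were found in 16.7% of annotated NK cells and 7.38% of CD8+ T cells. Since these genes took part in the clustering, the shares are a description. Ccl5, Nkg7, Ly6c2 and Il2rb were also picked as higher in these same cells, so a difference in their joint shares follows from that choice.

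Whole profiles lay nearer to CD8+ than to CD4+ T cells. With each sum drawn down to 80000 UMIs, Pearson's r across genes was 0.859 to 0.865 between annotated NK and CD8+ T cells of the same mouse. It was 0.823 to 0.842 with CD4+ T cells, 0.491 to 0.510 with B cells and 0.865 to 0.880 between annotated NK cells of different mice. Genes are not independent replicates, and types of 1 mouse share a library.

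Against CD4+ T cells, 44 of 2538 genes were called higher (1.73%) and 88 lower (3.47%, or 5.2% in either direction), and with DESeq2 size factors 62 and 61. Beside Ccl5 (7.20), Ly6c2 (5.42) and Nkg7 (4.87), the largest mean log2 differences upwards were those of Cd8a (3.70 ± 0.27), Il2rb (3.44) and Ifngas1 (3.42). Klrd1 was at 2.94, Cd8b1 at 3.35 and Ctsw at 2.71. Lowest were St8sia6 (-4.14), Trib2 (-4.04) and Cd4 (-3.70). Cd4 stood at 6.23, 0, 0 and 0 CPM in annotated NK cells of Maus3_2, Maus6, Maus2_2 and Maus4_2, against 134 to 140 CPM. Of the 20 genes higher than in CD8+ T cells, 15 were also higher than in CD4+ T cells (75.0% of the first list and 34.1% of the second). Of the 38 lower, 23 were shared (60.5% and 26.1%). Both comparisons use the same annotated NK cells.

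Ly6c1, a close copy of Ly6c2 on the same chromosome, was looked at after Ly6c2 had been seen. It had 0 UMIs in annotated NK cells (which allows up to 5.92 CPM) and stood at 92.8, 102, 101 and 75.4 CPM in CD4+ T cells, where Ly6c2 was at 10.4 ± 2.33 CPM. Between copies this close, how reads were split is uncertain. Both genes lie on chromosome 15 of GRCm38, Ly6c2 at chr15:75108158-75111970 and Ly6c1 at chr15:75044018-75048830, both on the minus strand.

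The bases before the start of Ly6c2 and Nkg7 are shown because both genes were called higher than in CD8+ and CD4+ T cells. They come from RefSeq on GRCm38.p6, 250 bases before the start of Ly6c2 and 185 before that of Nkg7, where 65 bases inside the GENCODE gene model are left out. Capitals mark matches to TGTGGT on either strand, the core bound by Runx factors.
Nkg7, chr7:43436888-43437072, plus strand: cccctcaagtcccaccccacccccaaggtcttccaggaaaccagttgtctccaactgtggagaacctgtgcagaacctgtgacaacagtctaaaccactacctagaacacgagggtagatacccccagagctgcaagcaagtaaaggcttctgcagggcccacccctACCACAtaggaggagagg
Ly6c2, chr15:75111972-75112221, minus strand: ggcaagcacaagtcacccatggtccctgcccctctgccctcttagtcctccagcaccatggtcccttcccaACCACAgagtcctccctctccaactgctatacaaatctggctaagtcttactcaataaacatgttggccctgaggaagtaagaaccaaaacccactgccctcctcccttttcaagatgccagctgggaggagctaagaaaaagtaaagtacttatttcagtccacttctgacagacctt
Within 250 bases, 14.2% of 27025 genes in the promoter table hold this motif, as do 9.80% of the 2010 matched genes compared with CD8+ T cells. Of the 20 genes called higher, 15 were matched and 4 hold it (26.7%), as do 4 of 26 matched among the 38 called lower (15.4%). A second motif, GGTGTG, the core bound by T-box factors such as Eomes, is held by 16.2% of all genes, 13.6% of the genes compared, 2 of the 15 (13.3%) and 7 of the 26 (26.9%). The letters of both motifs can overlap, and a match is a description.

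The 16 cells without a Cd8a or Cd8b1 UMI differed from the 57 with one. This split was made after the values had been seen. Maus3_2 gave 8 of the 16, Maus2_2 4, Maus4_2 3 and Maus6 1. Their median depth was 5306 UMIs against 7559, and the part of depth in this split was not tested. As plain UMIs per 1000000, without TMM factors and over the 4 mice together, Cd3d stood at 625 and 771 in the 2 sets. Trdc had 32 UMIs in 5 of the 16 cells and 0 in the 57, and Fcer1g 30 UMIs in 5 cells and 0. Of the 13 cells with a gamma or delta chain, 8 lay among the 16 and 5 among the 57. Klra genes had a UMI in 9 of the 16 cells (56.2%) and in 16 of the 57 (28.1%). On the same scale, over the mice together, Ikzf2 stood at 545 against 83.5 and Itga4 at 568 against 131. Klre1 stood at 159 against 28.6 and Ccl5 at 6023 against 2580. Itga4 was higher in the cells without a Cd8a or Cd8b1 UMI in each mouse. Ikzf2 turned in Maus4_2 (0 against 100.79) and Ccl5 in Maus6 (1560.76 against 2021.75). Klre1 also turned in Maus6, where the 1 cell without a Cd8a or Cd8b1 UMI held no Klre1 UMI. Over the mice together, Trac and Cd44 were lower in the 16, at 284 against 446 and 68.2 against 95.5. Trac turned in Maus6 (1784 against 335) and Cd44 in Maus3_2 (106 against 89.2). Cd44 had 6 UMIs in 4 of the 16 cells. Of the Trdc UMIs 40.6% came from 1 cell, and of the Fcer1g UMIs 66.7%.

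Leaving the 16 cells out left most named calls against CD8+ T cells in place. With the 57 cells alone, 19 genes were called higher and 50 lower, 27 of 30 named calls stayed, and Nkg7, Ikzf2 and Cep97 were lost. Ccl5, Ly6c2, Il2rb and Cd44 were still called.

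**Figure D5:**
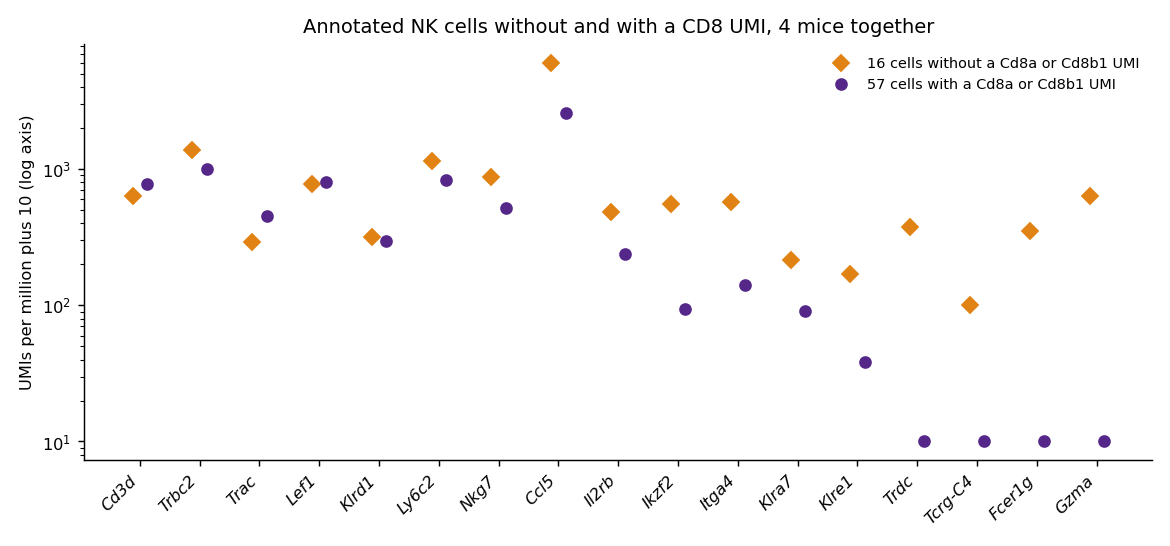
Level of 17 genes as UMIs per 1000000 plus 10 (log axis) in the 16 annotated NK cells without a Cd8a or Cd8b1 UMI (diamonds) and the 57 with one (circles), 4 mice together and without error bars. Trdc, Tcrg-C4, Fcer1g and Gzma have no UMI in the 57 cells, and all Gzma UMIs come from 1 cell.

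Other cell types left little trace. Of 14 B cell genes 5 had a UMI in annotated NK cells, and Ms4a1 and Igkc were at 0. Ighm, the heavy chain of immunoglobulin M, was the exception, in 30.6% of annotated NK cells, 30.2% of CD8+ T cells and 31.2% of CD4+ T cells after thinning. The summed level of the B cell list was 68.7 to 277 CPM over the 4 mice, against 148 to 198 CPM in CD8+ T cells. Of 12 monocyte and dendritic cell genes in the table, 2 had a UMI (Lyz2 in 1 cell, Cst3 in 26), and Csf1r and Cd14 were at 0. Of 10 platelet and red cell genes, 2 had a UMI, and Pf4 and Hbb-bs were at 0.

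Between treated and control mice, only values are given for the annotated NK cells, since 13 to 22 cells per mouse are too few for a test across genes. Of 2395 genes compared, 47 were called higher (1.96%) and 47 lower (1.96%, or 3.92% in either direction). A call here needed a mean difference of at least 2-fold and no overlap between the groups. At any size, 31.3% of genes kept the groups apart. The calls became 124 higher and 155 lower without Maus3_2, 113 and 99 without Maus2_2, and 1 and 2 with a pseudocount of 50 CPM. Highest among the calls was Trps1, a zinc finger repressor, where Maus3_2 and Maus6 had 118 and 166 CPM and Maus2_2 and Maus4_2 had 68.7 and 8.69 CPM. Ift20 followed at 80.9 and 88.6 against 20.6 and 26.1 CPM. Lowest was Coro2a, an actin-binding protein, at 18.7 and 0 against 89.3 and 122 CPM. These values rest on 45, 27 and 30 UMIs. Of the Coro2a UMIs, 9 came from 1 cell of Maus4_2. None of the 20 gene lists held a called member. Gzma, at 342 CPM in Maus3_2 and 0 in the other mice, again rested on 1 cell. Ccl5 overlapped between the groups, at 3568 and 1948 against 3105 and 3563 CPM, and so did Cd8a, at 193 and 221 against 151 and 200 CPM.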

How the data were processed

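Raw UMI counts of 15093 genes in 5794 cells were deposited by the authors as whole numbers, made with Cell Ranger 7.1.0 on mm10 and Seurat 4.3.0 per the submitters' processing notes. Per the study's methods the authors removed free RNA with SoupX, kept cells of 200 to 2500 genes with at most 10% mitochondrial counts and removed doublets with DoubletFinder. The sources used here do not say whether SoupX had been applied to these counts. No doublet caller was run again. The deposited table of cells gives cell type, cluster, UMI and gene counts (equal to sums of the counts in all 5794 cells) and the percent of mitochondrial counts, of which the authors made every value. 0 columns of values were left unused.

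Counts were summed per mouse and type, scaled by TMM (edgeR 4.0.16, R 4.3.3) to CPM, and compared as log2(CPM + 10) for genes with a mean of at least 50 CPM, so fold changes of low genes are understated. DESeq2 1.42.0 size factors were an alternative. Statistics ran in Python 3.11.15 with SciPy 1.17.1. Fold calls were tried on simulated sums with 4-fold changes only, in genes of at least 50 CPM in CD8+ T cells. Changes near 2-fold, and changes in genes lower in CD8+ T cells, were not simulated. Replicates are separate mice, numbered in accession order. Named genes are the 4 markers, receptor, coreceptor and NK cell genes, the 12 largest calls in each direction against CD8+ and the 6 against CD4+ T cells, up to 4 genes of each other list and 3 treatment calls in each direction. Others were named after their values were seen. The members and lists were chosen with earlier results of these data known. Gene positions come from GENCODE on GRCm38, where 263 of 263 listed symbols matched. Proteins were not analysed here.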

Additional observations from a re-analysis of the deposited data

Results flagged for a closer look

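For 5 of the 72 named genes compared (6.94%), the difference between annotated NK cells and CD8+ T cells had one sign in both treated mice and the other sign in both control mice. Over all genes compared this was so for 252 of 2533 (9.95%). The contrast was not tested, and Ift20, Sos2 and Gnai3 were named for their difference between treated and control mice, so their split was part of the choice. Klrd1 had log2 differences of -0.09 (Maus3_2), -0.24 (Maus6), 0.18 (Maus2_2) and 0.66 (Maus4_2), a gap of -0.588 (treated minus control). Hmgb2, a chromatin protein, had -0.03 and -0.16 against 0.32 and 0.03, a gap of -0.268. Ift20, a carrier protein of cilia and of the immune synapse, had 0.77 and 0.40 against -1.09 and -0.33, a gap of 1.30. Sos2, an exchange factor for Ras, had 0.12 and 0.86 against -0.60 and -1.69, a gap of 1.64. Gnai3, an inhibitory G protein subunit, had -1.02 and -2.19 against 0.14 and 0.16, a gap of -1.75. Ift20, Sos2 and Gnai3 had 27, 31 and 34 UMIs in all annotated NK cells. The part of counting error in these gaps was not tested.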

How the results depend on the processing

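Against CD8+ T cells, the 20 genes called higher became 47 with no filter on low values, 8 with a pseudocount of 50 CPM, 51 at 1.5-fold, 8 at 3-fold and 37 with sums drawn down to the NK total. The 38 lower became 23 with DESeq2 size factors, 224 with no filter, 9 with a pseudocount of 50 CPM, 198 at 1.5-fold, 4 at 3-fold and 166 with cells thinned to 3000 UMIs. Against CD4+ T cells, the 44 higher became 118 with no filter, 92 at 1.5-fold, 27 at 3-fold and 74 with sums drawn down. The 88 lower became 351 with no filter, 32 with a pseudocount of 50 CPM, 360 at 1.5-fold, 22 at 3-fold and 278 after thinning. Thinning, which left a median difference of -0.38 for all genes against CD8+ T cells, leaves fewer UMIs per sum, and a limit on fold moves the count by construction, while the other causes were not tested. Leaving out a mouse gave 16 to 23 higher and 44 to 58 lower than CD8+ T cells (58 without Maus2_2), and 45 to 49 higher and 94 to 120 lower than CD4+ T cells.

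Between treated and control mice, the 47 higher and 47 lower became 430 and 535 with no filter and 1 and 2 with a pseudocount of 50 CPM. Without a mouse they ranged from 62 to 124 and from 67 to 155, with 124 and 155 without Maus3_2 and 113 and 99 without Maus2_2, while 81 were lower without Maus4_2. The share difference ranged from -0.810 to -0.106 percentage points and the depth difference from 1195 to 1583 UMIs without a mouse. Depth set the shares: Nkg7 was in 77.8% of annotated NK cells at 3000 UMIs, 64.4% at 2000 and 97.3% unthinned. Klrd1 was in 54.2%, against 39.7% at 2000, 77.4% at 5000 and 76.7% unthinned, and Cd8b1 in 56.9%, against 74.2% at 5000 and 74.0% unthinned. Trac with a beta chain fell from 91.8% of cells to 66.7% after thinning and 68.5% at 2 UMIs. Without a mouse, shares ranged over 72.0 to 81.5% for Nkg7, 50 to 57.4% for Klrd1, 79.7 to 88.7% for Ly6c2 and 50 to 62.0% for Cd8b1. The classes ranged over 88.9 to 94.1% for Trac with a beta chain, 9.80 to 22.2% for a gamma or delta chain and 75.0 to 84.3% for Cd8. Among the named genes called, 0 turned their sign, and 16 of 30 named calls against CD8+ T cells were kept with a pseudocount of 50 CPM. No paired analysis was possible because the labels give treated and control mice no replicate numbers that they share.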

Other observations

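Gene groups of migration, cytokine response and activation were also compared with CD8+ T cells. For the counts of calls below, 0.79% of all 2533 genes were called higher and 1.5% lower. Of 18 adhesion and homing genes, 8 were compared, 0 called higher and 3 lower (Ccr7, Itga4 and Itgb7), with a median log2 difference of -0.44 beside -0.16 for all genes. Of 16 cytokine receptor genes, 10 were compared and 2 called higher (Il2rb and Il18r1), with a median of -0.03. Ifngr1, the ligand-binding chain of the interferon gamma receptor, stood at 600 CPM against 421 CPM and was in 81.9% of annotated NK cells and 61.4% of CD8+ T cells after thinning, which was no call. Of 12 interferon-stimulated genes, 3 were compared and 1 called lower (Ifi27l2a).

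Of 23 lineage transcription factors, 13 were compared, 1 called higher (Ikzf2) and 1 lower (Id2), with a median of -0.36. Of 15 immediate early genes, which respond within minutes to stimulation and handling, 9 were compared and 0 called. Cd69, an early activation antigen, stood at 201 ± 95.3 against 136 CPM (0.46 ± 0.45), and Fos, Fosb and Egr1 had 0 UMIs in annotated NK cells. Of 12 cell cycle genes, 7 had a UMI in annotated NK cells, and Mki67, Cdk1, Birc5, Ccnb2 and Rrm2 had 0. Pcna had a UMI in 15 of the 57 cells with a Cd8a or Cd8b1 UMI and in 3 of the 16 without. Stmn1, Top2a and Tyms had a UMI in 5, 4 and 3 of the 57 and in 0 of the 16, and Mcm5 in 1 of each. The list summed to 708 to 897 CPM over the 4 mice, against 824 to 1033 CPM in CD8+ T cells. Of the 2 compared, Tubb5 and Hmgb2, 0 were called.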
